A study of Mus musculus with 15 samples.

Results

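Transcripts of 8 podocyte genes were followed in whole mouse kidney: Nphs1, Podxl, Synpo, Wt1, Ptpro, Plce1, Magi2 and Cd2ap. They were taken by symbol from a table of 23866 gene rows, in which all 8 were present, and all 8 passed the filter on low counts. The kidneys came from male C57BL/6 mice in 4 groups. The olive oil group (n = 3) received the vehicle by intraperitoneal injection for 6 weeks. The CCl4 group (n = 4) received carbon tetrachloride, a solvent known to injure liver and kidney, by the same route for 6 weeks, and replicates 3 and 4 of that group for a further 4 weeks at a reduced dose. Mice of the EtOH group (n = 4) were given olive oil for 6 weeks and then ethanol for 4 weeks. The CCl4+EtOH group (n = 3) received CCl4 for 6 weeks and then ethanol for 4 weeks, and since the titles of these samples name CCl4 a second time, whether CCl4 went on during the ethanol weeks cannot be told from the labels. For age of the mice, and for route and dose of ethanol, no value was at hand. No group received 4 further weeks of vehicle alone, so ethanol and the later time of sampling cannot be told apart in any comparison with olive oil. The same holds for the 4 further weeks of CCl4 in replicates 3 and 4 of the CCl4 group.

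Podocytes are the epithelial cells that cover the outside of the glomerular capillaries. Their foot processes interlock, and the gap between neighbouring processes is bridged by the slit diaphragm, a cell junction that holds back plasma protein from the urine. Nephrin, the product of Nphs1, is the immunoglobulin-family protein that spans this gap, Magi2 and Cd2ap encode scaffold and adaptor proteins that attach it inside the cell, and Synpo encodes synaptopodin, an actin-binding protein of the foot process. Podxl encodes podocalyxin, a charged sialomucin of the surface facing the urinary space, Ptpro a receptor-type tyrosine phosphatase of that surface, Plce1 a phospholipase C, and Wt1 a zinc-finger transcription factor that podocytes keep in adult life. The genes are not equally restricted to podocytes: Cd2ap and Plce1 are used by many cell types, Podxl is also made by endothelium, and Wt1 by parietal and mesothelial cells.

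Sequence upstream of the transcription start is shown for 4 of the genes, chosen to set 2 genes that did not pass the test after CCl4+EtOH beside 2 that rose. Nphs1 and Ptpro are the former and Cd2ap and Plce1 the latter. Each run holds the 250 bases before the start, 5′ to 3′ on the gene's own strand, from RefSeq on GRCm38.p6, and capitals mark GTGGGNG, the core of the element bound by WT1 and EGR proteins, searched on both strands with overlapping matches allowed.
Nphs1 (chr7:30459808-30460057, plus strand): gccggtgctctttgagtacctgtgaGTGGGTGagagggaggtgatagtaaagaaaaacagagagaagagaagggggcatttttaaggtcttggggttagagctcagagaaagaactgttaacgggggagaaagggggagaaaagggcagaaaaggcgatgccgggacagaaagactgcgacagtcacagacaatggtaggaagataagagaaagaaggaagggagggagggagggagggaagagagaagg
Ptpro (chr6:137252049-137252298, plus strand): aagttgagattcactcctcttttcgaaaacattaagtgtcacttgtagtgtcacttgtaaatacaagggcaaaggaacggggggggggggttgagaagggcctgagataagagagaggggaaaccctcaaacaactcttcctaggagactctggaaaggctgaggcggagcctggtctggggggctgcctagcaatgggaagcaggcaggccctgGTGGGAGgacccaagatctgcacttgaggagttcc
Cd2ap (chr17:42876425-42876674, minus strand): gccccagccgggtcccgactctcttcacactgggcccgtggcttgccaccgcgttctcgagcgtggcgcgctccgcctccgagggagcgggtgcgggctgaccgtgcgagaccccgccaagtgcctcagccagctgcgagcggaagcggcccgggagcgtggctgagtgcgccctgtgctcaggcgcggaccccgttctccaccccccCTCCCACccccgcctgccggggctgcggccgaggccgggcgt
Plce1 (chr19:38523947-38524196, plus strand): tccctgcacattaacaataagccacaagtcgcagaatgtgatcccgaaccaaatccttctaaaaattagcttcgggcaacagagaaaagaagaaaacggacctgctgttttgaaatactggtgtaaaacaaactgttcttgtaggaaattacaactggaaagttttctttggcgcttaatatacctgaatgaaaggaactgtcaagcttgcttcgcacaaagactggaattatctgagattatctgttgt
Nphs1, Ptpro and Cd2ap each held 1 match and Plce1 none, while 28.1% of 32851 upstream windows of the same length held at least 1. The Cd2ap window was rich in CpG, with 31 CpG and 76.4% G and C against a median of 6 CpG and 52.4% over all windows. The windows of Nphs1, Ptpro and Plce1 held 5, 3 and 6 CpG. A match describes letters in a window and says nothing about binding. Bases just after each start were looked for in transcripts of the same gene from a second annotation. They were found in 1 transcript of Nphs1, 2 of Cd2ap and 3 of Plce1, but in 0 of Ptpro, so the start used for Ptpro is less sure. Of the 8 genes, 5 were in the table of upstream sequences, and Magi2 was listed there with 2 starts.

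Levels are given as CPM, read counts per 1000000 after TMM scaling of the libraries, and tests are edgeR quasi-likelihood F tests with adjustment over all 16105 genes tested. Library totals ran from 16384916 to 23585414 counts. CPM values are relative to all RNA of the kidney, so fewer cells of a type and less RNA per cell cannot be told apart. The libraries of CCl4+EtOH replicates 1 and 2 stood apart from replicate 3. The summed level of 8 proximal tubule markers was 5347 and 5443 CPM in replicates 1 and 2 and 14730 CPM in replicate 3, against 12920 to 15510 CPM after olive oil. The sum of 8 tubule injury genes was 39829, 29203 and 5201 CPM in the same libraries, against 972 to 1657 CPM after olive oil, and none of the markers of either list was at 0 in any group. EtOH replicates 1 to 3 held adrenal transcripts, with a sum of 882, 747 and 1194 CPM over 10 markers, against 9.19 CPM in EtOH replicate 4 and 5.60 to 27.0 CPM in the other groups, where 4 of the 10 markers were at 0 counts after olive oil, 2 after CCl4 and 3 after CCl4+EtOH. The part of these differences in the results on podocyte genes was not tested, beyond the fits without these libraries given with them.

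After CCl4+EtOH, 3 of the 8 podocyte genes rose over olive oil and none fell. Cd2ap rose 1.68-fold, Plce1 1.62-fold and Synpo 1.31-fold. Nphs1, Podxl and Magi2 did not pass the test, and their 3 CCl4+EtOH libraries were spread on both sides of the olive oil values. Of all genes tested, 18.9% were called higher and 16.6% lower in this comparison, 35.4% in all, so 3 of 8 higher is a count on a broad background of change. The median log2 change over the 8 genes was 0.22, and over all genes 0.02.

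Nphs1, the defining gene of the slit diaphragm, stood at 34.7, 43.7 and 41.2 CPM in olive oil replicates 1 to 3. In CCl4+EtOH replicates 1 to 3 it stood at 27.7, 38.8 and 49.2 CPM, so replicate 1 lay below and replicate 3 above every olive oil library. The group means were 39.9 ± 4.64 CPM (SD, n = 3) after olive oil, 48.9 ± 11.6 (SD, n = 4) after CCl4, 47.4 ± 3.27 (SD, n = 4) after EtOH and 38.5 ± 10.7 (SD, n = 3) after CCl4+EtOH. In order of the means CCl4 stood highest, then EtOH, olive oil and CCl4+EtOH; CCl4 overlapped with EtOH and olive oil with CCl4+EtOH, whereas EtOH and olive oil did not overlap, by a margin of 43.9 against 43.7 CPM. The log2 change of Nphs1 with CCl4+EtOH over olive oil was -0.05 ± 0.20 (SE, adjusted p = 0.867), and its approximate 95% interval ran from a ratio of 0.731 to 1.27. A fall of Nphs1 larger than this lower bound was outside the interval with all libraries, while smaller changes in either direction were not resolved. Without CCl4+EtOH replicate 3 the log2 change was -0.27 ± 0.20 (SE, adjusted p = 0.305), so the bound depends on that library. Nphs1os, annotated over the same locus, was counted at 3.02 to 7.25 CPM, and reads of the 2 genes cannot be told apart where they overlap, since the use of strand is not given.

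The tests of Nphs1 against EtOH and CCl4 depended on CCl4+EtOH replicate 3. Over EtOH its log2 change was -0.30 ± 0.19 (SE, adjusted p = 0.244), and without CCl4+EtOH replicate 3 it was -0.52 (adjusted p = 0.0437). Over CCl4 it was -0.35 ± 0.19 (adjusted p = 0.179), and -0.56 without that replicate (adjusted p = 0.0305). Of the 2 libraries left, replicate 1 lay below all olive oil libraries in Nphs1 and replicate 2 within their range.

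Magi2 encodes a scaffold with several PDZ domains that binds nephrin. It stood at 11.6, 13.0 and 13.9 CPM after olive oil and at 7.70, 12.1 and 17.4 CPM in CCl4+EtOH replicates 1 to 3. As with Nphs1, replicate 1 lay below and replicate 3 above all olive oil libraries. Its means were 14.99 ± 2.5 CPM after CCl4 (SD, n = 4), 12.9 ± 1.17 after olive oil (SD, n = 3), 12.9 ± 2.77 after EtOH (SD, n = 4) and 12.4 ± 4.85 after CCl4+EtOH (SD, n = 3), and each neighbour in that order overlapped with the next. The log2 change over olive oil was -0.05 ± 0.25 (SE, adjusted p = 0.887), with an approximate 95% interval of the ratio from 0.688 to 1.35. Over CCl4 the log2 change of Magi2 was -0.28 ± 0.23 (adjusted p = 0.382), and -0.60 without CCl4+EtOH replicate 3 (adjusted p = 0.0358).

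Cd2ap, the adaptor between nephrin and actin, stood highest in the 3 kidneys of the combined treatment. In replicate 3 the margin was small, at 144 CPM against 142 CPM in EtOH replicate 1. It stood at 131, 126 and 112 CPM after olive oil and at 272, 201 and 144 CPM in CCl4+EtOH replicates 1 to 3, above every library of every other group. CCl4 libraries lay between 109.9 and 134 CPM and EtOH libraries between 114 and 142 CPM. The means were 206 ± 64.2 CPM after CCl4+EtOH (SD, n = 3), 126 ± 13.9 after EtOH (SD, n = 4), 123 ± 9.88 after olive oil (SD, n = 3) and 123 ± 10.3 after CCl4 (SD, n = 4), and the last 3 overlapped. Cd2ap rose by a log2 change of 0.74 ± 0.18 over olive oil (SE, adjusted p = 0.00548), 0.71 ± 0.16 over EtOH (adjusted p = 0.00495) and 0.75 ± 0.16 over CCl4 (adjusted p = 0.00348). These 3 comparisons share the CCl4+EtOH libraries. In a fit of only the CCl4+EtOH and olive oil libraries its change of 0.73 did not pass (adjusted p = 0.0577), nor did its change of 0.83 over EtOH replicate 4 alone, without the 3 EtOH libraries high in adrenal transcripts (adjusted p = 0.1). The highest values of Cd2ap were in the 2 libraries with the highest sums of injury genes.

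At the apical surface, Podxl stood at 260.8, 272 and 255 CPM after olive oil and at 209, 240 and 344 CPM in CCl4+EtOH replicates 1 to 3. The olive oil values fell inside the wide range of the combined treatment. In order of the means, EtOH stood at 321 ± 16.1 CPM (SD, n = 4), CCl4 at 284 ± 47.0 (SD, n = 4), CCl4+EtOH at 264 ± 70.5 (SD, n = 3) and olive oil at 263 ± 8.95 (SD, n = 3), and each overlapped with the next. The log2 change of Podxl with CCl4+EtOH over olive oil was 0.01 ± 0.16 (SE, adjusted p = 0.971), with an approximate 95% interval of the ratio from 0.804 to 1.26. It turned negative, at -0.0019, with DESeq2 size factors. Over EtOH the log2 change was -0.28 ± 0.16 (adjusted p = 0.174), and without CCl4+EtOH replicate 3 it was -0.52 (adjusted p = 0.00368). Over CCl4 it was -0.11 ± 0.15 (adjusted p = 0.632) with all libraries and -0.34 without that replicate (adjusted p = 0.0358).

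Ptpro, the phosphatase of the same membrane, stood at 22.8, 24.9 and 25.9 CPM after olive oil, at 31.1, 37.5, 33.0 and 34.6 CPM in EtOH replicates 1 to 4 and at 24.4, 30.9 and 36.3 CPM in CCl4+EtOH replicates 1 to 3. Every EtOH library lay above every olive oil library, and the part of adrenal transcripts in this difference was not tested. The order of the means was EtOH at 34.1 ± 2.71 CPM (SD, n = 4), CCl4+EtOH at 30.5 ± 5.94 (SD, n = 3), CCl4 at 28.2 ± 5.43 (SD, n = 4) and olive oil at 24.5 ± 1.57 (SD, n = 3), and neighbours overlapped. Ptpro did not pass the test in any comparison: its log2 change was 0.47 ± 0.15 for EtOH over olive oil (SE, adjusted p = 0.225) and 0.32 ± 0.16 for CCl4+EtOH over olive oil (adjusted p = 0.137). Without CCl4+EtOH replicate 1, its lowest library in that group, the latter was 0.46 (adjusted p = 0.0467).

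Synpo, the gene of the actin-binding protein synaptopodin, had the tightest olive oil group of the 8 by CPM relative to the mean. It stood there at 58.9, 60.4 and 60.0 CPM, and at 70.9, 80.3 and 83.4 CPM in CCl4+EtOH replicates 1 to 3, with no overlap. Unlike Nphs1 and Magi2, it was above olive oil in all 3 libraries of the combined treatment. The means were 78.2 ± 6.53 CPM after CCl4+EtOH (SD, n = 3), 66.1 ± 4.08 after EtOH (SD, n = 4), 62.1 ± 6.28 after CCl4 (SD, n = 4) and 59.8 ± 0.81 after olive oil (SD, n = 3), and neighbours in this order overlapped. Synpo rose by a log2 change of 0.39 ± 0.09 over olive oil (SE, adjusted p = 0.00557) and 0.33 ± 0.09 over CCl4 (adjusted p = 0.0089). Over EtOH its change of 0.24 ± 0.09 was just past the threshold (adjusted p = 0.0409), and that call was lost in 10 of 14 fits with a library left out, where the adjusted p reached 0.122. In fits of only the groups compared the adjusted p was 0.0331 over olive oil, 0.0515 over CCl4 and 0.0915 over EtOH, and without EtOH replicates 1 to 3 it was 0.264 over EtOH.

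Plce1, the phospholipase C of the set, stood at 11.8, 10.9 and 9.91 CPM after olive oil and at 16.1, 21.02 and 15.5 CPM in CCl4+EtOH replicates 1 to 3. All 3 values lay above the 9.22 to 14.8 CPM of the CCl4 libraries and the 10.8 to 14.4 CPM of the EtOH libraries. The means were 17.5 ± 3.03 CPM after CCl4+EtOH (SD, n = 3), 12.5 ± 2.36 after CCl4 (SD, n = 4), 12.05 ± 1.64 after EtOH (SD, n = 4) and 10.9 ± 0.94 after olive oil (SD, n = 3), and the last 3 overlapped. Plce1 rose by a log2 change of 0.69 ± 0.17 over olive oil (SE, adjusted p = 0.00744), 0.54 ± 0.16 over EtOH (adjusted p = 0.0185) and 0.48 ± 0.16 over CCl4 (adjusted p = 0.0303). The calls over EtOH and CCl4 were lost without CCl4+EtOH replicate 2, where the changes were 0.39 (adjusted p = 0.12) and 0.34 (adjusted p = 0.17). The call over EtOH was also lost without EtOH replicate 3 (0.50, adjusted p = 0.0518), and that over CCl4 without CCl4 replicate 1 (0.36, adjusted p = 0.0751) or replicate 2 (0.50, adjusted p = 0.0546). A fit of only the groups compared lost the call over CCl4 (0.47, adjusted p = 0.0863), and a fit without EtOH replicates 1 to 3 that over EtOH (0.69, adjusted p = 0.128).

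Wt1, the transcription factor of the set, did not pass in any comparison. It stood at 10.8, 11.7 and 10.8 CPM after olive oil, at 10.1, 10.6, 11.1 and 10.4 CPM in EtOH replicates 1 to 4 and at 11.6, 13.8 and 11.0 CPM in CCl4+EtOH replicates 1 to 3. The CCl4 libraries were the most spread, at 14.0, 15.2, 8.68 and 11.6 CPM in replicates 1 to 4. The means were 12.4 ± 2.89 CPM after CCl4 (SD, n = 4), 12.1 ± 1.45 after CCl4+EtOH (SD, n = 3), 11.1 ± 0.50 after olive oil (SD, n = 3) and 10.54 ± 0.45 after EtOH (SD, n = 4), and all neighbours overlapped. The log2 change of Wt1 with CCl4+EtOH over olive oil was 0.13 ± 0.17 (SE, adjusted p = 0.579), with an approximate 95% interval of the ratio from 0.871 to 1.37. The antisense transcript Wt1os was counted at 0.44 to 1.30 CPM, with the same limit on strand as for Nphs1os.

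**Figure D1:**
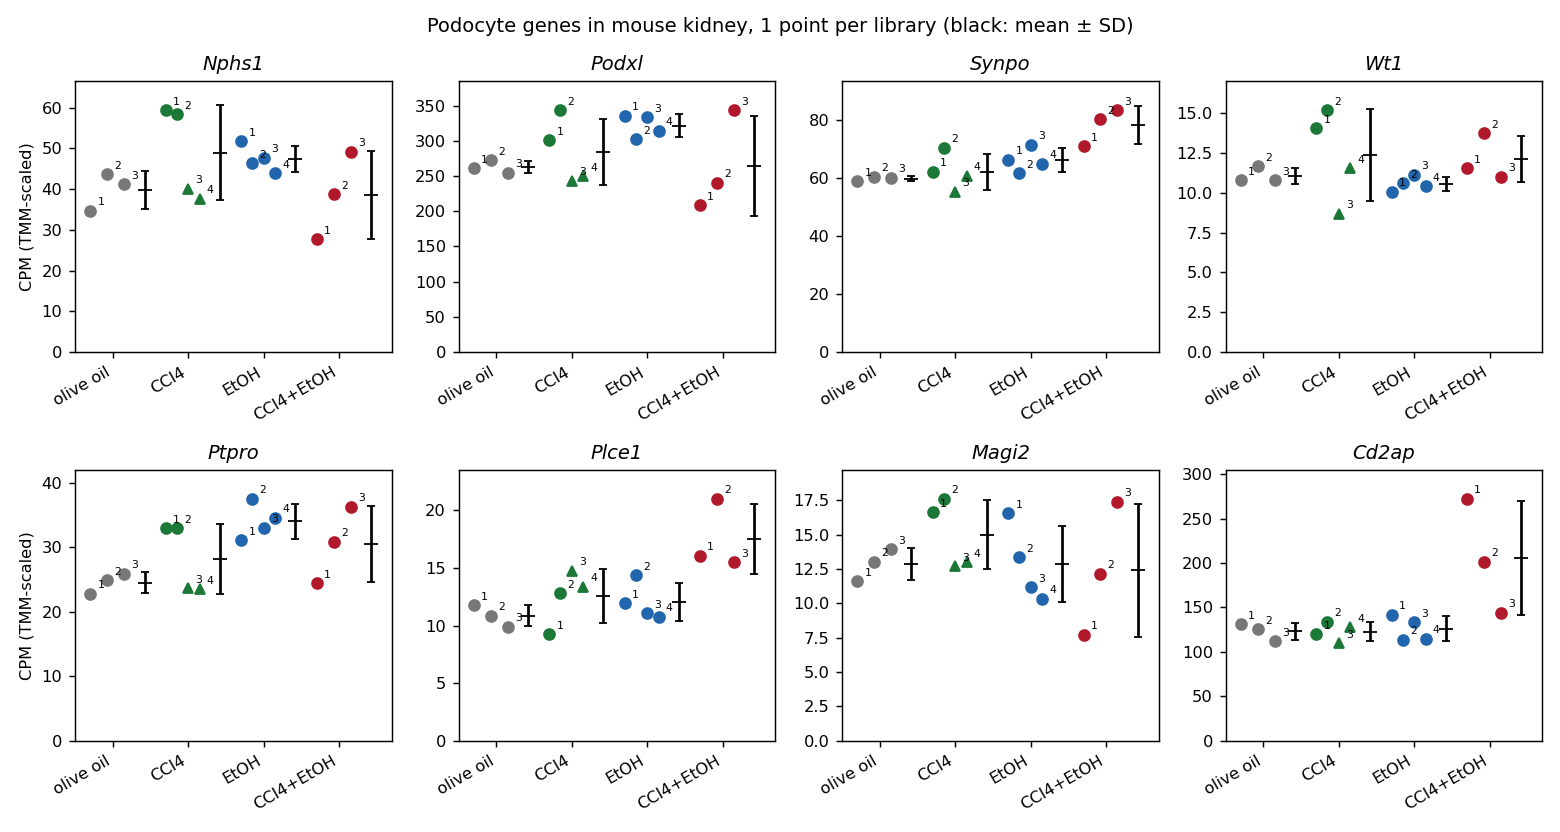
TMM-scaled CPM of each podocyte gene on a linear axis from 0, with 1 point per library, the replicate number beside it, and the mean ± SD of each group in black; triangles are the CCl4 mice with 4 further weeks at a reduced dose. Cd2ap in the CCl4+EtOH group lay between 144 and 272 CPM, above all other libraries, while Nphs1 in the same group ran from 27.7 to 49.2 CPM across the olive oil values.

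Over EtOH, CCl4+EtOH again gave 3 of 8 podocyte genes higher and none lower, against 18.1% higher and 16.2% lower, or 34.2%, of all genes. Over CCl4 the counts were the same, against 18.7% higher and 16.2% lower, or 34.8%. Cd2ap, Plce1 and Synpo were the 3 genes in each case, and the 3 comparisons share the CCl4+EtOH libraries. The groups did not overlap for 3 of the 8 in CCl4+EtOH vs olive oil, where they did not overlap for 43.7% of all genes. Over EtOH they did not overlap for Cd2ap and Plce1, or 2 of 8, against 32.4% of all genes, and over CCl4 for 3 of 8 against 35.1%.

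**Figure D2:**
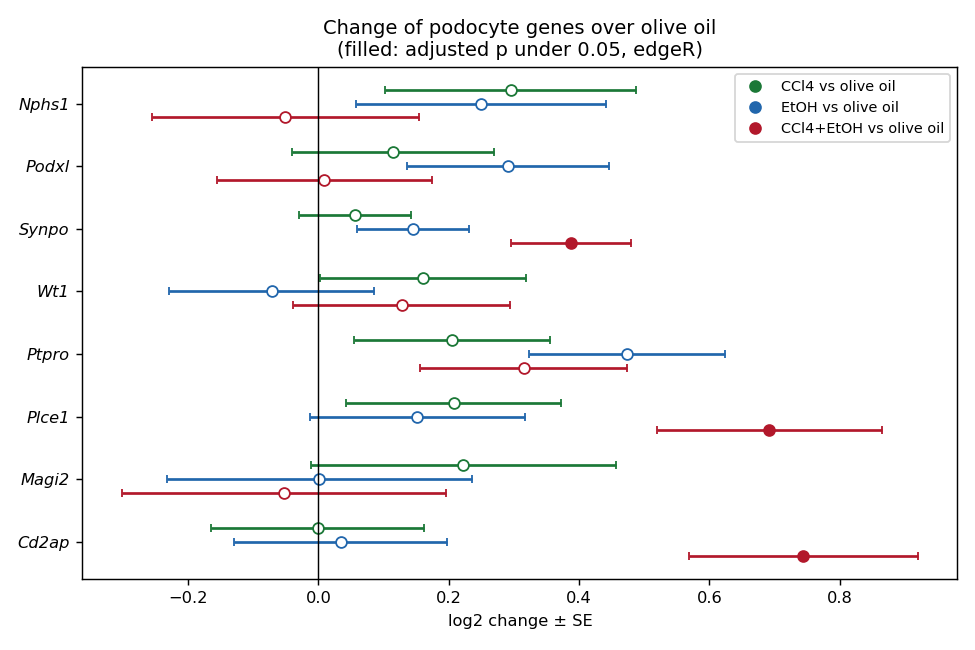
Fitted log2 change ± SE of each podocyte gene over olive oil in the CCl4, EtOH and CCl4+EtOH groups, with filled points where the adjusted p of edgeR was under 0.05. Cd2ap at 0.74, Plce1 at 0.69 and Synpo at 0.39 after CCl4+EtOH are the filled points; every CCl4 and EtOH point is open.

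The balance among the podocyte genes varied between libraries, in the combined treatment and elsewhere. Taking each gene as a log2 ratio to Nphs1 in the same library, and subtracting the olive oil mean of that ratio, Cd2ap shifted by 1.67, 0.75 and -0.08 in CCl4+EtOH replicates 1 to 3. Plce1 shifted by 1.09, 0.99 and 0.21, and Synpo by 0.77, 0.46 and 0.17. The corresponding values of Podxl were 0.19, -0.09 and 0.08 and those of Magi2 were -0.21, -0.04 and 0.13, so both stayed close to Nphs1 in all 3 libraries. Ptpro shifted by 0.52, 0.37 and 0.26 and Wt1 by 0.58, 0.35 and -0.32, although neither passed the test on its CPM.

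In CCl4+EtOH replicate 3 the shifts of Cd2ap, Plce1 and Synpo lay within those of the olive oil libraries taken over all 7 genes. In the olive oil libraries the shifts of the 7 genes lay between -0.18 and 0.32. Shifts outside that range also occurred in other groups: in CCl4 replicate 1 Plce1 stood at -0.81, Cd2ap at -0.62 and Synpo at -0.52, in EtOH replicate 1 Wt1 stood at -0.52, and in EtOH replicates 3 and 4 Magi2 stood at -0.46. The ratios cancel any factor that scales all genes of a library alike, and they are given as values without a test.

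**Figure D3:**
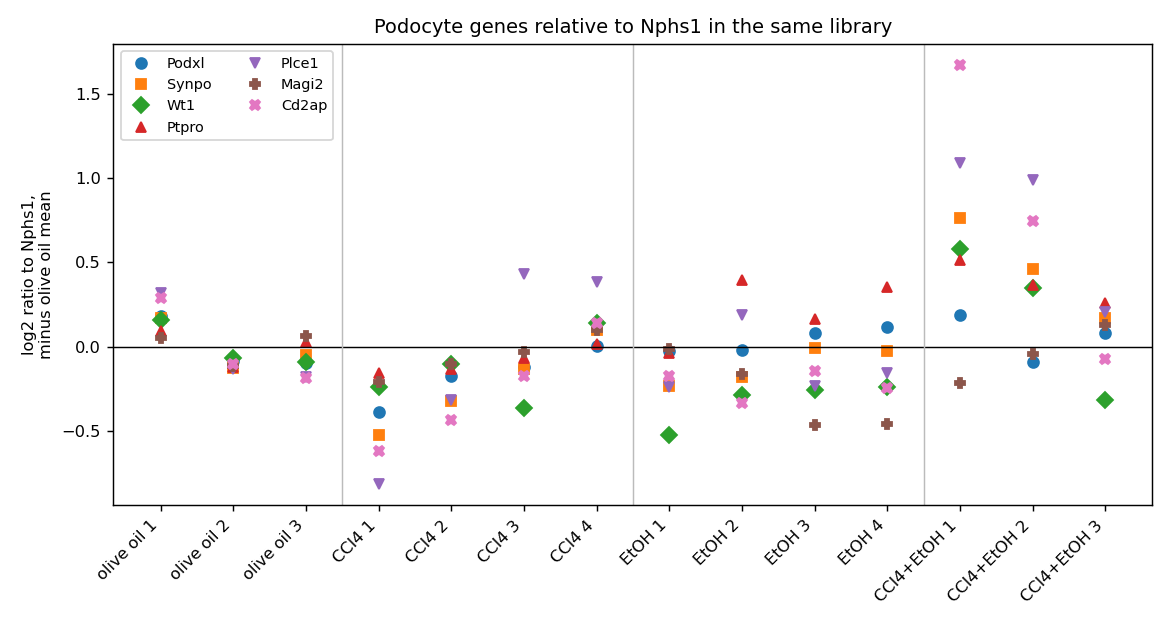
Log2 ratio of 7 podocyte genes to Nphs1 in each library, minus the olive oil mean of that ratio. Cd2ap, Plce1 and Synpo stand at 1.67, 1.09 and 0.77 in CCl4+EtOH replicate 1, while Podxl and Magi2 stay between -0.21 and 0.19 in the 3 CCl4+EtOH libraries.

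The comparison of CCl4 with olive oil concerns the solvent on its own. None of the 8 podocyte genes was called, and of all genes tested 0% were (0 called, and 640 with an unadjusted p under 0.05). No podocyte gene had an unadjusted p under 0.05, and DESeq2 and limma-voom also called none of the 8. The largest log2 change among them was that of Nphs1, at 0.30 ± 0.19 (SE, adjusted p = 1). The 2 groups overlapped for all 8, where 7.22% of all genes did not overlap. The median was 0.18 over the 8 genes and -0.0014 over all genes.

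The CCl4 group held 2 schedules, and Nphs1 separated by them. It stood at 59.4 and 58.5 CPM in replicates 1 and 2, sampled after 6 weeks, and at 40.1 and 37.6 CPM in replicates 3 and 4, with 4 further weeks at a reduced dose. Podxl stood at 301 and 343 CPM against 244 and 249.5 CPM, Ptpro at 33.0 in both against 23.6 and 23.5 CPM, Wt1 at 14.0 and 15.2 against 8.68 and 11.6 CPM, Magi2 at 16.6 and 17.6 against 12.7 and 13.0 CPM, and Synpo at 62.2 and 70.4 against 55.2 and 60.7 CPM. In each of these 6 genes the 6-week values lay above those of the longer schedule, with 2 libraries on either side. The share of all genes that separate in this way was not worked out, so the count has no background beside it. Plce1 went the other way, with 9.22 and 12.8 CPM against 14.8 and 13.4 CPM, and Cd2ap overlapped, with 119.7 and 134 CPM against 109.9 and 128 CPM.

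In a fit of 5 groups that kept the schedules apart, 7 of the 8 podocyte genes were lower after the longer schedule and none passed, nor did any of the 16442 genes tested (0% called). The log2 change of Nphs1 was -0.60 ± 0.20 (SE, unadjusted p = 0.00896 and adjusted p = 0.602), that of Wt1 -0.53 ± 0.16 (adjusted p = 0.602) and that of Ptpro -0.49 ± 0.15 (adjusted p = 0.602). These 3 genes had an unadjusted p under 0.05, as did 1096 of all genes, or 6.67%. The median log2 change was -0.40 over the 8 genes and 0.00023 over all genes. Against olive oil, the 6-week schedule also gave no call (0% of all genes), and none of the 8 lay below 0. Their median log2 change was 0.35, and -0.0049 over all genes. Nphs1 (0.56 ± 0.18, SE), Ptpro (0.43 ± 0.14) and Wt1 (0.40 ± 0.14) had an unadjusted p under 0.05, as did 4.88% of all genes. For the longer schedule against olive oil the median of the 8 was -0.047, with 7 below 0 and 0 with an unadjusted p under 0.05. This split was examined after the counts of Nphs1 had been seen. The schedules differ in length of treatment, in dose and in time of sampling, which cannot be told apart.

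Ethanol on its own was compared with the vehicle in EtOH vs olive oil. None of the 8 podocyte genes passed, on a background of 0.168% of genes called, 0.0807% higher and 0.0869% lower. Ptpro was the only 1 of the 8 with an unadjusted p under 0.05, which 1679 of 16105 genes had. DESeq2 and limma-voom also called none of the 8. The groups did not overlap for 4 of the 8, namely Nphs1, Podxl, Synpo and Ptpro, each with the EtOH libraries higher, while 11.9% of all genes had groups that did not overlap. For Podxl the EtOH libraries stood at 336, 302, 333 and 314 CPM against 255 to 272 CPM, and its log2 change was 0.29 ± 0.16 (SE, adjusted p = 0.56). The 4 genes were picked by that separation, so the place of EtOH replicate 4 above olive oil is no further evidence. That library, with no excess of adrenal transcripts, held 43.9 CPM of Nphs1, against an olive oil maximum of 43.7 CPM. It held 314 CPM of Podxl, 65.0 of Synpo and 34.6 of Ptpro. The part of adrenal transcripts in these differences was not tested. EtOH against CCl4 called none of the 8 podocyte genes, none of which had an unadjusted p under 0.05, against 0.546% of all genes called, 0.298% higher and 0.248% lower. DESeq2 and limma-voom called none of the 8 there either. The 2 groups overlapped for all 8, where 8.72% of all genes did not overlap.

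The interaction sets the change from EtOH to CCl4+EtOH against the change from olive oil to CCl4. The latter takes both CCl4 schedules together, and the interaction called none of the 8 podocyte genes. Of all genes it called 9.12%, with 5.49% higher and 3.63% lower. Cd2ap had a log2 difference of 0.71 ± 0.23 (SE, adjusted p = 0.0661) and Nphs1 one of -0.60 ± 0.27 (adjusted p = 0.168). These were the 2 of the 8 with an unadjusted p under 0.05, which 4608 of 16105 genes had. DESeq2 called Cd2ap (0.70, adjusted p = 0.0355), in a fit that called 15.1% of all genes. Limma-voom called Cd2ap higher (0.82, adjusted p = 0.00334) and Podxl lower (-0.56, adjusted p = 0.0321), against 29.9% of all genes called. Without CCl4+EtOH replicate 3, edgeR called Cd2ap at 0.91 (adjusted p = 0.00109), Nphs1 at -0.81 (adjusted p = 0.0297) and Podxl at -0.63 (adjusted p = 0.01). That fit called 29.8% of all genes.

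Of a further 75 genes of podocytes and the glomerular basement membrane, taken in 5 lists by role, 74 passed the filter on low counts, and 26 were called higher and 6 lower in CCl4+EtOH vs olive oil. Over all genes tested 18.9% were called higher and 16.6% lower. The median log2 change of the 74 was 0.28. Many of these genes are also used by tubule, stromal or endothelial cells, and the lists were drawn up with earlier results of these data known.

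Among 15 tested partners of the slit diaphragm 7 were called higher and none lower, against 18.9% higher and 16.6% lower over all genes, with a median log2 change of 0.41. Kirrel2 was the 1 of the 75 with too few counts to be tested. Fat1, a giant protocadherin of that junction which epithelia of the tubule also make, rose from 115 ± 22.3 to 272 ± 79.4 CPM (SD over 3 mice a group). Kirrel, which encodes the nephrin relative Neph1, rose from 20.8 ± 2.46 to 38.5 ± 9.12 CPM, a log2 change of 0.89 ± 0.16 (SE, adjusted p = 0.00102). Tjp1, a junction scaffold of many epithelia, rose by 0.57 ± 0.10 and the tetraspanin Cd151 by 0.46 ± 0.10.

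Of 20 genes of actin and adhesion 7 were called higher and 1 lower, against 18.9% higher and 16.6% lower over all genes, with a median of 0.07. Itgb1 and Itga3, which together form the main laminin receptor of the podocyte, rose by 0.72 ± 0.14 and 0.81 ± 0.20 on the log2 scale (SE, adjusted p = 0.00167 and 0.0066). Myh9, a non-muscle myosin, rose by 0.89 ± 0.19 (adjusted p = 0.00289). Anln, the gene of anillin, which is also needed for cell division, rose from 1.86 ± 1.22 to 17.8 ± 16.7 CPM (adjusted p = 0.00345).

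Among 8 transcription factors 2 were called higher and none lower, a share of higher calls near the 18.9% over all genes (16.6% lower). Tcf4 rose by 0.30 ± 0.10 (SE, adjusted p = 0.0266), and Tcf21, a factor of podocytes and stroma, by 0.55 ± 0.19 (adjusted p = 0.0366). Wtip, which encodes a WT1-interacting protein, was at 0.31 ± 0.12 (adjusted p = 0.0638). The summed level of 9 leukocyte markers was 424 to 544 CPM after CCl4+EtOH and 182 to 263 CPM after olive oil, with none of the 9 at 0 in either group, and its part in the values of these factors was not tested.

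Of 20 other podocyte-enriched genes 5 were called higher and 2 lower, shares near the 18.9% and 16.6% over all genes. Nes, the intermediate filament nestin, rose from 36.6 ± 2.26 to 94.5 ± 31.1 CPM (SD over 3 mice a group), or by 1.37 ± 0.19 as a log2 change (SE, adjusted p = 0.000348). Clu, which also stands in the list of tubule injury genes, rose by 2.18 ± 0.43 (adjusted p = 0.00208) and the apolipoprotein gene Apoe by 1.41 ± 0.28 (adjusted p = 0.00215). Mertk, a receptor tyrosine kinase, fell from 75.3 ± 5.005 to 46.0 ± 17.6 CPM (adjusted p = 0.00994).

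In EtOH vs olive oil, Cdkn1c was the only 1 of the 74 that passed, against 0.168% of all genes, and it was named after its values were seen. It encodes the cell cycle inhibitor p57, which mature podocytes make and cells of the adrenal cortex make as well. It stood at 15.7, 12.9 and 13.4 CPM in olive oil replicates 1 to 3 and at 21.8, 26.2, 26.4 and 20.3 CPM in EtOH replicates 1 to 4. All 4 EtOH libraries lay above olive oil, including replicate 4, which held 9.19 CPM of summed adrenal markers. Every CCl4 library, the lowest at 15.9 CPM, and every CCl4+EtOH library, the lowest at 17.9 CPM, also lay above the olive oil maximum of 15.7 CPM. A place above olive oil was thus not particular to the EtOH group. The log2 change of Cdkn1c in EtOH vs olive oil was 0.76 ± 0.13 (SE, adjusted p = 0.0273), and the part of adrenal transcripts in its size was not tested.

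Of 11 basement membrane genes 5 were called higher and 3 lower, where 18.9% and 16.6% of all genes were. Lamc1, a laminin chain of most basement membranes, rose from 69.5 ± 5.07 to 111 ± 5.83 CPM (SD over 3 mice a group, adjusted p = 5.46e-05). Nid1 and Agrn, which encode nidogen and the proteoglycan agrin, rose by 1.005 ± 0.16 and 0.95 ± 0.17 on the log2 scale (SE, adjusted p = 0.000672 and 0.00107). Col4a4, a collagen chain of the mature glomerular basement membrane, fell from 352 ± 25.1 to 219 ± 35.3 CPM (adjusted p = 0.00142).

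**Figure D4:**
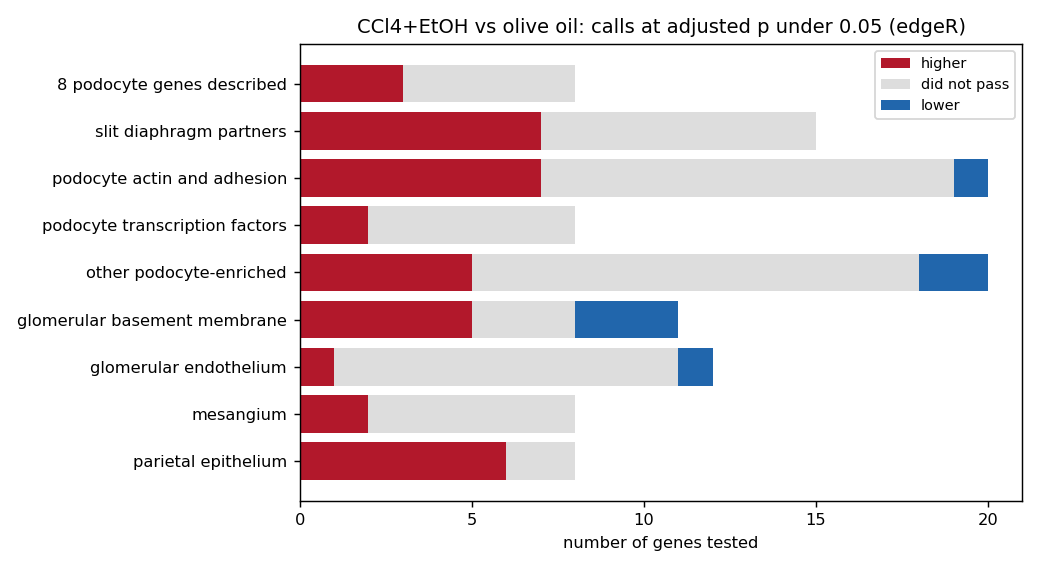
Number of genes tested in each list that were called higher (red), called lower (blue) or did not pass (grey) in CCl4+EtOH vs olive oil, by edgeR at an adjusted p under 0.05. Slit diaphragm partners show 7 higher and none lower of 15, and basement membrane genes 5 higher and 3 lower of 11.

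Genes whose log2 CPM was most like that of Nphs1 were ranked by Pearson r over the 14 libraries, among 14469 other genes with a mean of at least 1 CPM. The 10 highest outside the set were Cyp2d26, Slc27a1, Myom2, Nphs1os, Pradc1, Inpp5k, Cyp2c44, Slc7a9, Akap7 and Etv5, with r from 0.86 to 0.91 and Spearman's rho from 0.77 to 0.92. Nphs1os shares the Nphs1 locus, and Slc7a9, a cystine transporter, is known from the proximal tubule. Podxl ranked 10 with an r of 0.86, Magi2 ranked 29 with 0.83 and Ptpro ranked 437 with 0.68. The other members were far down, with Wt1 at rank 4110 (0.32), Synpo at 6242 (0.11), Plce1 at 11417 (-0.42) and Cd2ap at 12840 (-0.54). With each library taken as its deviation from the mean of its group, r with Nphs1 was higher for Synpo, at 0.73, and for Wt1, at 0.49. In the same way it was 0.89 for Podxl, 0.88 for Magi2, 0.88 for Ptpro, -0.39 for Plce1 and -0.46 for Cd2ap. Of the further podocyte and basement membrane genes only Ddn, the gene of dendrin, was among the first 100, at rank 25. The libraries fall into treatment groups and share scaling, so r serves here only to rank and describe genes, without a test.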

How the data were processed

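Kidney RNA of 14 male C57BL/6 mice was analysed. Per the labels' protocols it was taken with a spin-column kit from frozen tissue and made into Illumina libraries. The authors deposited raw counts of reads for each gene symbol and mouse, with no scaling. Per the submitters' processing notes GSNAP and mm9 were used. Counting program, annotation and strand setting: not given in the sources used here. The labels list 1 further olive oil mouse, not analysed here. Of 23893 rows, 27 held a date in place of a symbol (0.168% to 0.209% of each library) and were dropped. Columns were joined to samples by the number in the title. The labels name no batches, and p-values reflect the spread between labelled samples.

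The test was edgeR 4.0.16 under R 4.3.3, with filterByExpr, TMM scaling and robust quasi-likelihood F tests in 1 fit of 4 groups. Benjamini-Hochberg adjustment covered 16105 genes, with a threshold of 0.05. SE is the absolute log2 change over the square root of F, and the approximate 95% interval is 1.96 SE to either side. This interval is narrower than the F test allows. That of Ptpro in CCl4+EtOH vs olive oil, from 1.003 to 1.54, did not cover an unchanged level, while the unadjusted p of the F test was 0.0671. The log2 CPM for ranking used a prior count of 2. Alternatives were DESeq2 1.42.0, limma-voom (limma 3.58.1), other scalings, filters and groupings, and libraries left out. The scripts were tested on simulated counts with 200 genes changed in CCl4+EtOH. Against olive oil they recovered 23.9% of 1.5-fold, 64.2% of 2-fold and 87.9% of 4-fold changes, with 3 false calls among 120. Far fewer genes were changed there than were called in the real libraries, so these shares do not carry over directly. A gene that did not pass may still have changed.

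The 8 genes, the lists and the alternatives were chosen with earlier results of these data known. Genes named from a list are the 4 with the smallest p in CCl4+EtOH vs olive oil, unless said otherwise; some genes of the lists are not reported here. Upstream sequences are from RefSeq tables of GRCm38.p6, another build than that of the counts, and enter no count.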

Additional observations from a re-analysis of the deposited data

How the results depend on the processing

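The calls of Cd2ap, Plce1 and Synpo in CCl4+EtOH vs olive oil held in every alternative run except that of Cd2ap in the fit of only the groups compared. No called podocyte gene changed sign in any alternative. Leaving out each library in turn gave 3 to 4 of the 8 higher over olive oil, 1 to 3 over EtOH and 2 to 3 over CCl4, with none lower over olive oil, 0 to 2 lower over EtOH and 0 to 3 lower over CCl4; in the interaction it gave 0 to 1 higher and 0 to 2 lower. As a share of all genes tested, these fits called 0.0183% to 0.939% for EtOH vs olive oil, 24% to 45.2% for CCl4+EtOH vs olive oil, 19.6% to 45.2% for CCl4+EtOH vs EtOH, 21.3% to 45.1% for CCl4+EtOH vs CCl4, 0.0498% to 1.26% for EtOH vs CCl4 and 1.78% to 29.8% for the interaction. The highest shares came without CCl4+EtOH replicate 3. DESeq2 called 0.00479% of genes for CCl4 vs olive oil, 1.81% for EtOH vs olive oil, 2.05% for EtOH vs CCl4 and 15.1% for the interaction, with 1 podocyte gene higher there. Limma-voom called 1.38%, 1.71% and 29.9% for EtOH vs olive oil, EtOH vs CCl4 and the interaction, with 1 podocyte gene higher and 1 lower in the interaction and 1 lower in CCl4+EtOH vs EtOH. Without a filter EtOH vs CCl4 gave 0.158% and the interaction 5.36%. Fits of only the groups compared, not run for the interaction, gave 0.607% for EtOH vs olive oil, 21% for CCl4+EtOH vs olive oil, 21.5% for CCl4+EtOH vs EtOH and 1.42% for EtOH vs CCl4, and left 1 podocyte gene higher in CCl4+EtOH vs CCl4. The 5-group fit gave 0.377% for EtOH vs olive oil. Without EtOH replicates 1 to 3, with the spread of the single EtOH library taken from the other groups, the shares were 0.00596% for EtOH vs olive oil, 2% for CCl4+EtOH vs EtOH with 0 podocyte genes higher (log2 changes of 0.83 for Cd2ap, 0.69 for Plce1 and 0.25 for Synpo), 0% for EtOH vs CCl4 and 0.0179% for the interaction. The cause was not tested.

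Signs turned only for podocyte genes that were not called. For Cd2ap in CCl4 vs olive oil the log2 change was 0.0032 with at least 1 CPM in 3 libraries, 0.0024 without a filter, 0.0021 with only the groups compared and 0.0059 with upper-quartile factors. For Podxl in CCl4+EtOH vs olive oil it was -0.0022 by DESeq2, -0.0019 with DESeq2 size factors, -0.16 by limma-voom, -0.0024 with only the groups compared and -0.00063 without EtOH replicates 1 to 3. In EtOH vs olive oil limma-voom gave -0.060 for Magi2 and -0.0021 for Cd2ap, upper-quartile factors -0.00046 for Magi2, and the fit without EtOH replicates 1 to 3 gave -0.0044 for Plce1, -0.31 for Magi2 and -0.093 for Cd2ap. For Wt1 in CCl4+EtOH vs CCl4 it was 0.017 by limma-voom and 0.0072 with upper-quartile factors. Without EtOH replicates 1 to 3 Magi2 was at 0.25 in CCl4+EtOH vs EtOH and 0.024 in the interaction, and Cd2ap at -0.092 in EtOH vs CCl4.

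With each library left out in turn, log2 changes that took both signs ran as follows. In CCl4 vs olive oil they were those of Synpo from -0.0098 to 0.11 and Cd2ap from -0.064 to 0.048. In EtOH vs olive oil they were those of Magi2 from -0.14 to 0.091 and Cd2ap from -0.029 to 0.082. In CCl4+EtOH vs olive oil they were those of Nphs1 from -0.27 to 0.15, Podxl from -0.23 to 0.16 and Magi2 from -0.38 to 0.21. In CCl4+EtOH vs EtOH it was that of Magi2 from -0.38 to 0.20. In CCl4+EtOH vs CCl4 they were those of Podxl from -0.34 to 0.046, Wt1 from -0.17 to 0.082 and Ptpro from -0.037 to 0.25. In EtOH vs CCl4 they were those of Nphs1 from -0.15 to 0.061, Plce1 from -0.18 to 0.032 and Cd2ap from -0.027 to 0.081. In the interaction it was that of Wt1 from -0.097 to 0.15. No paired analysis was possible because the labels give the groups no shared replicate numbers.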

Other observations

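Lists of the other glomerular cells gave a mixed picture in CCl4+EtOH vs olive oil. Of 12 endothelial genes 1 was called higher and 1 lower, where 18.9% of all genes were called higher and 16.6% lower, with a median log2 change of -0.0044. Plat, the tissue plasminogen activator, rose from 70.7 ± 3.16 to 145 ± 48.8 CPM (SD over 3 mice a group, adjusted p = 0.00302), and Ehd3, an endocytic gene enriched in glomerular endothelium, fell from 40.7 ± 4.00 to 29.8 ± 4.59 CPM (adjusted p = 0.0231). Kdr and Flt1, receptors of the podocyte product VEGF-A, were at -0.42 ± 0.22 and -0.22 ± 0.19 on the log2 scale (SE, adjusted p = 0.153 and 0.375).

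The same shares over all genes, 18.9% higher and 16.6% lower, hold beside the counts that follow. Of 8 mesangial genes 2 were called higher and none lower, the proteoglycan gene Cspg4 by 0.94 ± 0.15 (SE, adjusted p = 0.0007) and the protease inhibitor gene Serpine2 by 1.76 ± 0.30 (adjusted p = 0.00108), and Pdgfrb was at 0.39 ± 0.22 (adjusted p = 0.18). Of 8 genes of parietal epithelium 6 were called higher and none lower, Cldn1 from 32.2 ± 0.28 to 155 ± 77.3 CPM (adjusted p = 0.000394) and Cd44 from 4.84 ± 1.15 to 86.1 ± 52.0 CPM (adjusted p = 0.000468), while injured tubule cells are also known to make both. The summed level of the parietal list was 1249 and 1130 CPM in CCl4+EtOH replicates 1 and 2 and 520 CPM in replicate 3, against 379 to 434 CPM after olive oil. Of 5 mesothelial genes tested only Krt19 was called higher (2.06 ± 0.70, adjusted p = 0.037).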
